A study of Mus musculus with 16 samples.

Results

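The genes described here form one biochemical line of the hair follicle: the 4 peptidylarginine deiminases Padi1, Padi2, Padi3 and Padi4, their hair substrates Tchh and S100a3, the crosslinking enzyme Tgm3, the hair cortex receptor Gprc5d and the hair desmosome gene Dsg4. They were chosen by name, and the probe sets of the array table that carry only that gene symbol stood for them. Of the 9 genes, 8 had a probe set and all 8 passed the filter on dim probe sets, among 18194 genes with a probe set of 1 symbol. Dsg4 had no probe set in the annotation used and was not analysed here. Tgm3 had 2 probe sets and every other measured gene had 1.

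Skin was taken from the back of iK5-TERT mice (K5tTA-tetop-TERT) at postnatal day 60, with the follicles labelled as anagen, the growth phase. In these mice a keratin 5 promoter drives a tetracycline transactivator in basal keratinocytes and the outer root sheath, so that a Tert transgene runs without doxycycline and stops when the drug is given. All animals had doxycycline (5 µg/ml) in the drinking water during development to keep the transgene silent and were then taken off it. TERT-off mice were injected with doxycycline (8 µg/g body weight), and TERT-on mice, by the study's account, with PBS as vehicle. Biopsies of 0, 6, 12 and 24 h gave 2 arrays in each of the 8 groups, 16 arrays in all. Within a cohort, arrays that share a replicate number were treated as repeated biopsies from the same animal, which makes 4 mice, 2 in each cohort. The TERT-off biopsies of 0 h carry the injected label but, by the study's account, preceded the injection.

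Trichohyalin, the product of Tchh, fills granules of the inner root sheath and the medulla of the hair. Peptidylarginine deiminases turn its arginines into citrullines, which loosens the protein, and transglutaminase 3 then crosslinks it to keratin filaments, so that the sheath and the shaft harden. In the hair cuticle S100a3, a calcium-binding protein rich in cysteine, is a known target of the same modification. Trichohyalin and S100a3 are made in growing follicles, in the differentiating layers above the matrix.

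Whole biopsies were measured, so that fewer cells of a type and less RNA per cell cannot be told apart. Array medians lay between 32.9 and 36.3 in units of intensity, the model-based brightness of a probe set on a linear scale. For 1 array, that of 0 h from TERT-on replicate 1, the 5′ to 3′ ratio of Gapdh was 0.0599, where it was 0.977 to 1.12 elsewhere. Tert intensity over 6 to 24 h was 8.32 to 16.1 on the TERT-off arrays and 22.6 to 64.6 on the TERT-on arrays (log2 difference −1.76, SE 0.26, limma adjusted p = 0.0028), whereas at 0 h it was 184.6 to 357 on all 4 arrays, so that Tert was lower after 0 h in both cohorts. One mouse stood apart from its label before any treatment. In TERT-off replicate 1 at 0 h the summed intensity of 7 inner root sheath keratins was 669.2, against 15914.1 to 22329.6 on the other 3 arrays of 0 h, and that of 5 cortex keratins was 92.6 against 3726.4 to 14030.4. The main comparisons below are therefore also given without it.

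The 4 deiminase genes of this group lie side by side on mouse chromosome 4, in the order Padi4, Padi3, Padi1 and Padi2. Before them lies Padi6, a gene of the same family that was not among the genes chosen, and after them Sdhb. Tchh lies on chromosome 3 between Rptn and Tchhl1. The promoters of these 4 deiminase genes are printed because 3 were lower and 1 was higher in the comparison below. That of Tchh, a hair substrate of these enzymes, is printed as well. The windows come from RefSeq on build GRCm38.p6 and run from 250 bases before to 50 bases after the start of the gene. They lie at chr4:140845729-140846028 for Padi1, chr4:140810599-140810898 for Padi3 and chr4:140774154-140774453 for Padi4, all on the minus strand, and on the plus strand at chr4:140906110-140906409 for Padi2 and chr3:93442080-93442379 for Tchh. Capitals mark matches to the motifs listed after them.
Padi1: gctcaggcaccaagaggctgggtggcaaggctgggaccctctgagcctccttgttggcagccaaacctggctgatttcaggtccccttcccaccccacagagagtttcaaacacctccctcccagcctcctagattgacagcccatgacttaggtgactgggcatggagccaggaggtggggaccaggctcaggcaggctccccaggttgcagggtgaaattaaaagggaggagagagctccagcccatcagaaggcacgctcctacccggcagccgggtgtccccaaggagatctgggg
Padi3: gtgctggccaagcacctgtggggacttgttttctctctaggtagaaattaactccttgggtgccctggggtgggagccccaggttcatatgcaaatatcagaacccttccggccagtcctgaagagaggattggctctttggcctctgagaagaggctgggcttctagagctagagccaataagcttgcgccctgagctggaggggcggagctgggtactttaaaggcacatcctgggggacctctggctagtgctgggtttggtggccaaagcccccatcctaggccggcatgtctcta
Padi4: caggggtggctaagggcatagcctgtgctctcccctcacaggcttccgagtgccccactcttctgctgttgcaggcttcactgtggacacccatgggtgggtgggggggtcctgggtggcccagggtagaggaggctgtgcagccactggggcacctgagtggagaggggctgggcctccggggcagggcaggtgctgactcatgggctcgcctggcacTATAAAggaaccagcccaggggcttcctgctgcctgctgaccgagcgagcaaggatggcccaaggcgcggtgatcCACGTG
Padi2: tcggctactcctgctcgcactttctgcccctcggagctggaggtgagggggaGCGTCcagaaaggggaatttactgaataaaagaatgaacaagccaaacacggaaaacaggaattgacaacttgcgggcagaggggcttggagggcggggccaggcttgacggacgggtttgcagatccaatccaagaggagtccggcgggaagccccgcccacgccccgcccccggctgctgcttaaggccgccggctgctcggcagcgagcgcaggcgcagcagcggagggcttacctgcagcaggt
Tchh: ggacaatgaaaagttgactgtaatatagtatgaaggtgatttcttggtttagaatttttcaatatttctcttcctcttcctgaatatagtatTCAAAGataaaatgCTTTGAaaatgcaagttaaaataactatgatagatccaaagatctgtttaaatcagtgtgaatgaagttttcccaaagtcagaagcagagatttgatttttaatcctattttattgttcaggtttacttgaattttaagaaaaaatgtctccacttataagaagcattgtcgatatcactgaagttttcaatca

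Each window was searched on both strands. TATAAA was taken as the TATA box. For TCF/LEF factors, which answer Wnt signals, the letters were CTTTGA, and separately CTTTGT in a second form. An E-box was read as CACGTG. Sites resembling those of the hair factor Hoxc13 were read as TTTATNA, and those of Foxn1 as GACGC. The Padi1 and Padi3 windows held none of these letters. In the Padi4 window the TATA box stood at −31 and the E-box at 45 relative to the start, and the Padi2 window held the Foxn1 letters once, on the opposite strand at −198. The first TCF/LEF form occurred at −158 and −144 in the Tchh window, on opposite strands. Windows of Tgm3, Gprc5d and S100a3 were searched but are not printed. Tgm3 held the TATA box at −28 and the second TCF/LEF form at −238, and Gprc5d held the TATA letters at −53 on the opposite strand. S100a3 had 4 windows, which between them held both TCF/LEF forms, the TATA box and the Foxn1 letters. Of 32851 such windows in the mouse table, 13.6% held the TATA box, 16% the first and 18.7% the second TCF/LEF form, 7.15% the E-box, 14.1% the Hoxc13 letters and 27.2% the Foxn1 letters, so single matches of this kind are frequent. The GC content was 61.3% for Padi1, 56.7% for Padi3, 66.3% for Padi4 and 63.3% for Padi2, and 28.7% for Tchh, where the median of all windows was 52.7%. These matches are a description of letters and were not tested for binding.

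Over 6 to 24 h, 3 of the 4 deiminases were lower in TERT-off skin and Padi2 was higher. Padi3, the deiminase of the hair that acts on trichohyalin and S100a3, showed the largest difference of the 4. Its intensity in TERT-off replicate 1 was 19.4, 8.84, 7.77 and 19 at 0, 6, 12 and 24 h, and in TERT-off replicate 2 it was 1698.9, 1368.5, 58.9 and 25.3. The corresponding values were 1633.4, 2025.6, 1648.8 and 927.9 in TERT-on replicate 1 and 822, 1743.9, 1862.7 and 2047.8 in TERT-on replicate 2. One TERT-off mouse was thus low throughout, the other began at the TERT-on level and lost it between 6 and 12 h, and the cohorts overlapped through the 6 h array of replicate 2 alone. Over 6 to 24 h Padi3 was 44.5-fold lower (log2 difference −5.48, SE 1.25, limma adjusted p = 0.0107).

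Padi1, a deiminase of the epidermis and the inner root sheath, followed Padi3. In TERT-off skin it gave 8.33, 15, 11.1 and 16.6 in replicate 1 and 237.5, 171.6, 20 and 20.4 in replicate 2. TERT-on intensities were 244.3, 562.7, 342.7 and 143.9 in replicate 1 and 120.6, 369.8, 452.4 and 542.9 in replicate 2. TERT-off replicate 2 at 6 h lay above the lowest TERT-on array, that of replicate 1 at 24 h, and the other TERT-off arrays after 0 h lay below it. The difference over 6 to 24 h was 15.4-fold (log2 −3.94, SE 0.80, limma adjusted p = 0.00739).

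Padi4, best known as the histone deiminase of neutrophils, was lower by a smaller factor. TERT-off replicate 1 gave 56.6, 56.4, 62.2 and 58.5, and TERT-off replicate 2 gave 318.1, 247.6, 90.2 and 69.9. In TERT-on skin the values were 184.5, 462.8, 346.3 and 130 for replicate 1 and 145.4, 354.9, 442.2 and 472.6 for replicate 2. The 2 TERT-off mice ended close to one another at 24 h, below both TERT-on mice. Padi4 was 4.11-fold lower over 6 to 24 h (log2 −2.04, SE 0.49, limma adjusted p = 0.0126).

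Padi2, a deiminase of many tissues that include skeletal muscle and brain, went the other way. Its TERT-off intensity was 54.4, 72, 45.7 and 41.2 in replicate 1 and 52.1, 42, 54.7 and 56.6 in replicate 2. In TERT-on skin it was 74.6, 23.1, 38.4 and 40.6 in replicate 1 and 72.2, 32.6, 30.1 and 35 in replicate 2. All TERT-off arrays after 0 h lay above all TERT-on arrays, though by as little as 41.2 against 40.6, and the highest values of all were those of the TERT-on arrays at 0 h. Padi2 was 1.56-fold higher over 6 to 24 h (log2 0.64, SE 0.18, limma adjusted p = 0.0225). Within TERT-on skin its change from 0 h was −1.16 (SE 0.23, limma adjusted p = 0.0624), which did not pass the threshold of 0.05.

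**Figure D1:**
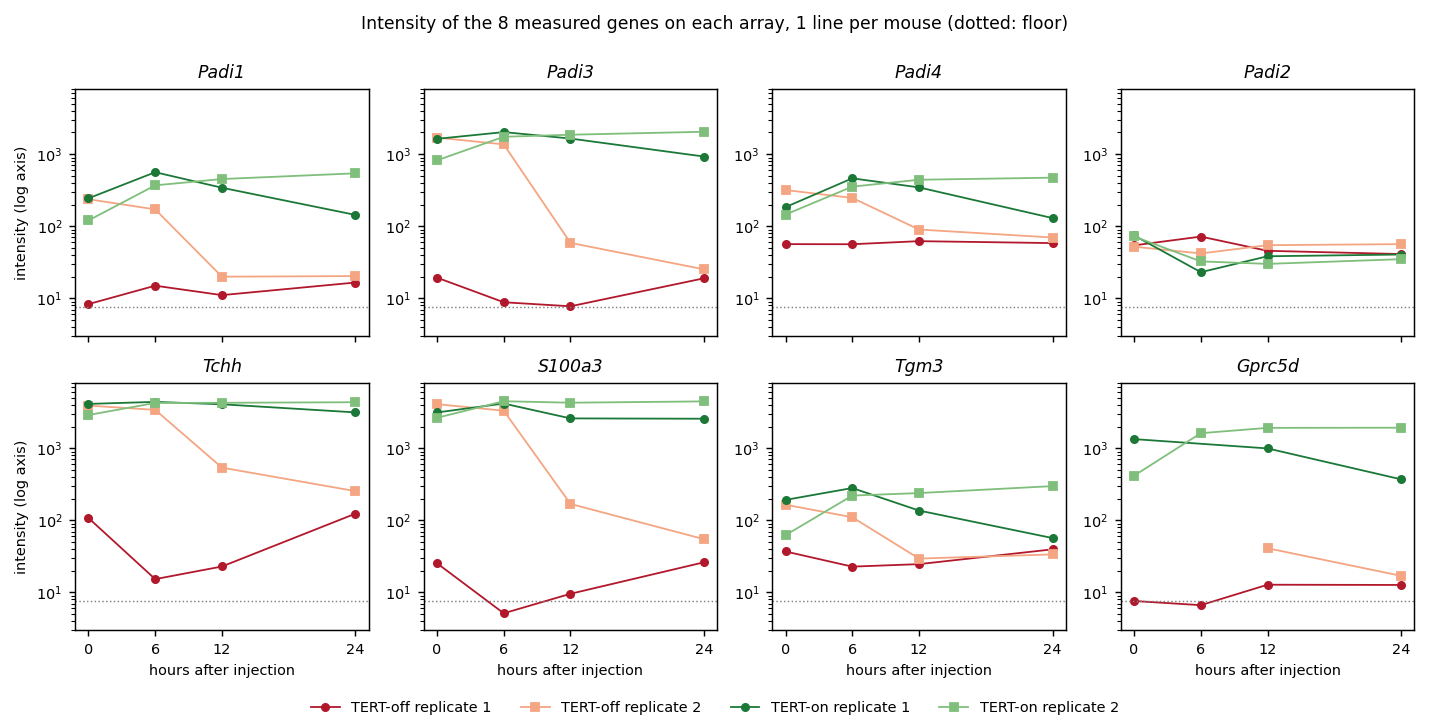
Intensity (log axis) by hours after injection for each of the 8 measured genes, each mouse drawn as a line (red and orange for the TERT-off mice, dark and light green for the TERT-on mice) and the floor of 7.71 dotted; missing points are empty cells. For all genes but Padi2, TERT-off replicate 1 lies low throughout and TERT-off replicate 2 drops between 6 and 12 h, except that Gprc5d has no value for replicate 2 before 12 h.

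Both substrates were lower in TERT-off skin. Tchh, which encodes trichohyalin, gave 107.9, 15.3, 22.9 and 123.8 in TERT-off replicate 1 and 3905.2, 3407, 538.6 and 254.2 in TERT-off replicate 2. TERT-on skin gave 4121, 4397.8, 4072.3 and 3143.1 in replicate 1 and 2891.6, 4248.3, 4269.9 and 4350.9 in replicate 2. The TERT-on mice stayed within a narrow range, and in TERT-off replicate 1 the values of 0 and 24 h were higher than those of 6 and 12 h. Tchh was 24.6-fold lower over 6 to 24 h (log2 −4.62, SE 1.25, limma adjusted p = 0.0207). With the 6 to 24 h arrays averaged per mouse and 2 mice set against 2, an alternative added after seeing the data, the same difference had an adjusted p of 0.0667 in limma, and without the filter on dim probe sets it had 0.0651.

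S100a3 showed the same course. In TERT-off replicate 1 it was 25.4, 5.14, 9.58 and 26.2, and in TERT-off replicate 2 it was 4089.9, 3315.5, 169 and 54.8. TERT-on intensities were 3136.9, 4171.1, 2594.6 and 2567.1 in replicate 1 and 2646.2, 4487.8, 4283.5 and 4466.7 in replicate 2. Across the 4 arrays of TERT-off replicate 2 the transcript went from the level of the TERT-on mice to near that of TERT-off replicate 1. The fitted log2 difference over 6 to 24 h was −5.87 (SE 1.47, limma adjusted p = 0.0153), with 1 TERT-off array under the floor of 7.71 to which low values were raised. Without the filter on dim probe sets the adjusted p was 0.0501 in limma.

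Tgm3, the crosslinking enzyme, was lower by both probe sets. The brighter one gave 37, 22.8, 24.7 and 39.6 in TERT-off replicate 1 and 164.6, 110.5, 29.5 and 33.7 in TERT-off replicate 2. In TERT-on skin it gave 192.2, 280.7, 136.7 and 56.8 in replicate 1 and 62.3, 220.6, 238.9 and 298.4 in replicate 2. The TERT-on mice moved apart over the day, with replicate 1 falling towards the TERT-off level by 24 h and replicate 2 rising. Over 6 to 24 h the brighter probe set was 4.91-fold lower (log2 −2.30, SE 0.56, limma adjusted p = 0.0143) and the other 2.91-fold lower (log2 −1.54, SE 0.47, limma adjusted p = 0.0322).

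Gprc5d, an orphan receptor of the keratinizing hair shaft that plasma cells also carry, had 3 empty cells. TERT-off replicate 1 gave 7.61, 6.66, 12.8 and 12.7, while TERT-off replicate 2 was empty at 0 and 6 h and gave 41 and 17 at 12 and 24 h. TERT-on replicate 1 gave 1338.7 at 0 h, no value at 6 h, and 994.8 and 370.7 at 12 and 24 h, and TERT-on replicate 2 gave 416.5, 1618.2, 1917.2 and 1926.7. Every TERT-off value lay below every TERT-on value, but the array on which the other falling genes overlapped, TERT-off replicate 2 at 6 h, is among the empty cells. The fit left these cells out, so that 5 TERT-off and 5 TERT-on arrays gave a fitted log2 difference of −6.45 over 6 to 24 h (SE 0.62, limma adjusted p = 0.00147), with 1 TERT-off array raised to the floor. The value moved with how the uneven arrays were weighted and with how the empty cells were treated. It was −6.24 with the replicate block (limma adjusted p = 0.000789), −5.96 with the arrays averaged per mouse (limma adjusted p = 0.0112) and −5.20 with the empty cells set to the floor (limma adjusted p = 0.0106). That last setting puts TERT-on replicate 1 at 6 h at 7.71, although this mouse gave 1338.7 at 0 h and 994.8 at 12 h.

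Over 6 to 24 h, then, 7 of the 8 measured genes passed the threshold as lower and 1 as higher. Of all 12579 genes tested, 12.6% were lower and 16.9% were higher in this comparison. An unadjusted p under 0.05 in limma was given by all 8 measured genes and by 10177 of 25563 probe sets. The median log2 difference of the 8 genes was −4.28, and that of all genes was 0.04. Gprc5d was the only one with all TERT-off arrays below all TERT-on arrays, as 4.83% of genes were, and Padi2 the only one with all of them above, as 6.59% were. For the other 6 lower genes the cohorts overlapped through a single array, that of TERT-off replicate 2 at 6 h.

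The calls rested on both TERT-on mice. Without TERT-on replicate 1, 1 of 8 genes passed (Gprc5d, lower), and without TERT-on replicate 2 none of the 7 that could be fitted did, although all 7 had an unadjusted p under 0.05 in limma. In these fits the differences of Padi3 were −5.66 and −5.29, close to the −5.48 of all 4 mice. The share of all genes called also fell, to 4.56% in the former fit and 0.303% in the latter. Without TERT-off replicate 1 the differences shrank, to −3.71 for Padi3, −3.16 for Padi1 and −1.55 for Padi4. Those of Tchh, S100a3 and Tgm3 shrank to −2.39, −3.55 and −1.91, and that of Padi2 was 0.63. Without TERT-off replicate 2 the differences of Padi3, Tchh and S100a3 grew to −7.24, −6.85 and −8.20. In either fit the TERT-off arm is 1 mouse. The fitted correlation within mice was −0.0322 and −0.0323, so the biopsies of that animal counted as independent arrays. Leaving out 1 of 2 unlike mice also removes the spread between them. Calls from these fits, here and below, therefore cannot show that a difference holds across mice. The main fit took a correlation within mice of 0.0728 for every probe set, so its serial biopsies also counted as nearly independent. Where the 2 TERT-off mice differed as widely as for Padi3, the SE and adjusted p of that fit may understate the spread between mice.

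**Figure D2:**
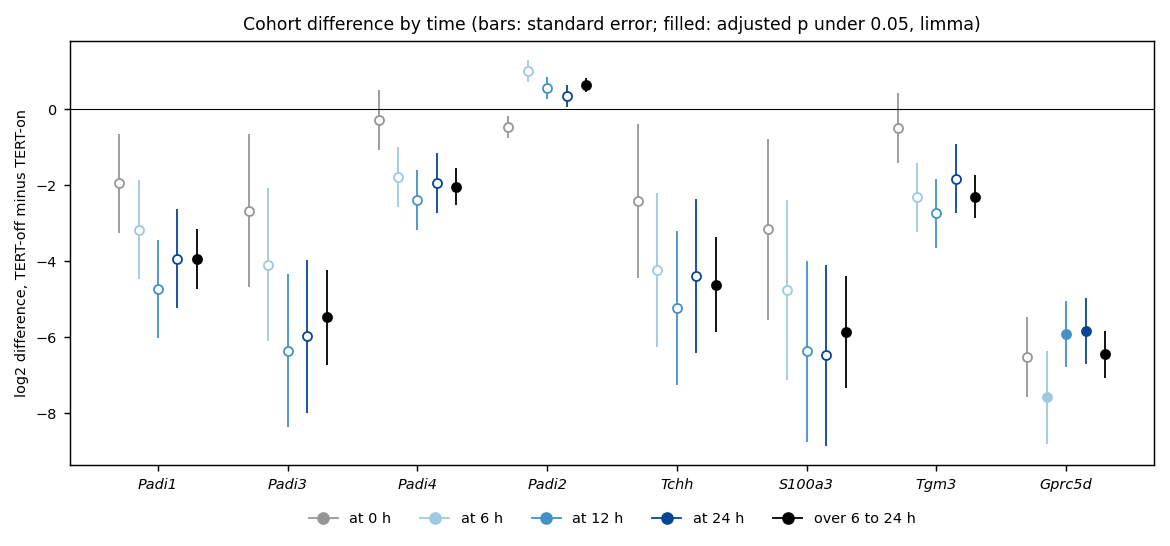
Log2 difference of intensity, TERT-off minus TERT-on, for each gene at 0, 6, 12 and 24 h and over 6 to 24 h, with standard errors as bars and filled points where the limma adjusted p was under 0.05. Over 6 to 24 h all 8 points are filled, while at single times only Gprc5d is.

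Time by time, the mean of TERT-off skin was below that of TERT-on skin before the injection, with a wide spread between mice. At 0 h no member passed the threshold in limma, as against 0.0397% of all genes. An unadjusted p under 0.05 was given by 1 member (Gprc5d, which had 1 TERT-off value there) and by 2087 of 25576 probe sets. All 8 fitted log2 differences at 0 h were below 0, with a median of −2.18. For Gprc5d the only TERT-off value there was under the floor, and the others ran from −0.29 for Padi4 to −3.16 for S100a3. Padi3 stood at −2.67 (SE 2.02) and S100a3 had an SE of 2.38, since TERT-off replicate 1 was low and TERT-off replicate 2 was not.

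At 6, 12 and 24 h only Gprc5d passed in limma, as lower, with adjusted p of 0.0381, 0.0283 and 0.0213. Its log2 difference was −5.91 at 12 h and −5.84 at 24 h. At 6 h 1 array under the floor was set against 1 array, with the error taken from the other groups, and the fitted value of −7.59 depends on the floor. Of all genes 0.596%, 0.667% and 0.588% were lower at these times. At an unadjusted p under 0.05 in limma there were 5, 7 and 5 members. So were 5601, 6826 and 5010 of the 25576, 25575 and 25564 probe sets tested. These comparisons use the same arrays as the one over 6 to 24 h. Padi2 was highest relative to TERT-on at 6 h, at 1.01 (SE 0.29, limma adjusted p = 0.0893).

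Leaving out TERT-off replicate 1, which was low before treatment, gave a time course for the other TERT-off mouse against both TERT-on mice. At 6 h none of the 7 genes that could be fitted passed and none had an unadjusted p under 0.05 in limma, with a median difference of −0.46. At 12 h Padi1 (−4.30), Padi3 (−4.90), Tchh (−2.95) and S100a3 (−4.30) were lower, with limma adjusted p from 0.00441 to 0.0349. At 24 h the same 4 genes were lower, at −3.77, −5.77, −3.86 and −5.95, and so was Gprc5d at −5.63. Of all genes 0%, 1.45% and 1.82% were lower in that fit at 6, 12 and 24 h. Each of these groups holds 1 TERT-off array, whose spread is assumed to be that of the other groups.

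Leaving out TERT-off replicate 2 instead, 5 members were lower already at 0 h (Padi1, Padi3, Tchh, S100a3 and Gprc5d). The log2 differences there were −4.36 for Padi1, −5.90 for Padi3, −5.00 for Tchh and −6.83 for S100a3. At 6 h Padi4 joined them as lower and Padi2 was higher, at 1.39. At 12 and 24 h the same 5 genes as at 0 h were lower. That fit also called more of all genes, with 0.878%, 7.65%, 2.55% and 2.08% lower at 0, 6, 12 and 24 h and 7.26% higher at 6 h. Each TERT-off group again holds 1 array, and the Gprc5d values of 0 and 6 h and the S100a3 value of 6 h lie under the floor.

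**Figure D3:**
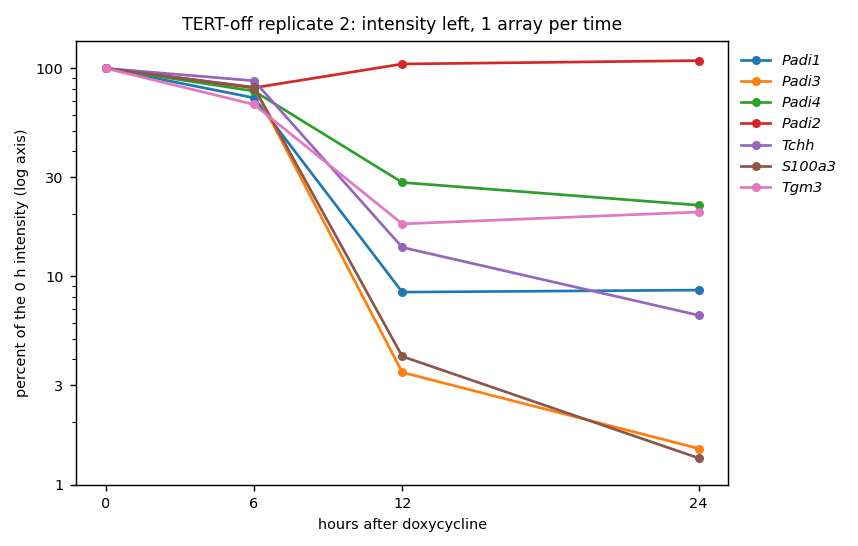
Intensity left in TERT-off replicate 2 as percent of its own 0 h array, on a log axis, against hours after doxycycline, with 1 line per gene and 1 array per point (Gprc5d has no 0 h value). Of the 7 genes shown, 6 stay between 67.1 and 87.2 percent at 6 h and fall to 28.3 percent or less by 12 h, while Padi2 stays between 80.7 and 109.

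Within that mouse the genes differed in how much was left. At 6 h between 67.1% (Tgm3) and 87.2% (Tchh) of the 0 h intensity remained for the 6 genes that later fell. By 12 h it was 3.46% for Padi3 and 4.13% for S100a3, 8.41% for Padi1, 13.8% for Tchh, 17.9% for Tgm3 and 28.3% for Padi4. At 24 h Padi3 and S100a3 were at 1.49% and 1.34%, Tchh was at 6.51%, and Padi1, Tgm3 and Padi4, at 8.60%, 20.4% and 22%, had moved little since 12 h. Padi2 was at 105% and 109%. These are ratios of single arrays and carry no error.

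TERT-off replicate 1 changed on a lower level. Tchh went to 14.2% and 21.2% of its 0 h value at 6 and 12 h and was at 115% at 24 h, S100a3 went to 20.2% and 37.7% and then 103%, and Padi3 went to 45.6% and 40.1% and then 97.8%. The brighter Tgm3 probe set went to 61.6% and 66.6% and then 107%, and Padi4 stayed between 99.6% and 110%. Padi1 was above its 0 h value throughout, at 180%, 133% and 199%. Gprc5d was at 169% and 167% at 12 and 24 h, from a 0 h value under the floor. Several of these values lie near the floor, where intensities carry little signal.

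Both TERT-on mice were higher at 6 h than at 0 h and then parted. In TERT-on replicate 2 the 7 genes other than Padi2 were all higher at 6 h than at 0 h, from 147% for Tchh to 389% for Gprc5d, and they stayed so at 24 h, up to 479% for the brighter Tgm3 probe set. In TERT-on replicate 1 the 6 of them with a value at 6 h were also higher then, from 107% for Tchh to 251% for Padi4, but all 7 were lower at 24 h than at 0 h, from 27.7% for Gprc5d to 81.8% for S100a3. The 0 h array of that mouse is the one with the low Gapdh ratio, and its part in this course was not tested. The comparison over 6 to 24 h puts no weight on 0 h arrays, so leaving that array out kept Padi3 at −5.48. At 0 h it changed the fitted differences to −2.14 for Padi3, −1.38 for Padi1 and 0.43 for Tgm3, from −2.67, −1.95 and −0.49.

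Changes from 0 h within a cohort, tested over both mice, passed for no member in limma. In TERT-off skin 0.493% of all genes passed and no member had an unadjusted p under 0.05. In TERT-on skin 0.183% passed and only Padi2 had an unadjusted p under 0.05. The difference between the cohorts' changes passed for no member, against 0.00795% of all genes, with values of −2.80 (SE 2.24) for Padi3 and −2.71 (SE 2.64) for S100a3, and only Padi2 had an unadjusted p under 0.05. The cohort difference at 24 h minus that at 6 h passed for none either, against 0.215% of genes, and none had an unadjusted p under 0.05. Without TERT-off replicate 1, Padi3 (−3.75), Tchh (−2.33) and S100a3 (−3.71) fell within TERT-off skin, and Tchh and S100a3 passed for the difference of changes (−2.56 and −4.05) and for 24 h minus 6 h (−3.52 and −5.57), with limma adjusted p from 0.02 to 0.0487. Of all genes 0.168%, 0.0877% and 0.136% were called in these comparisons, in which the TERT-off arm is 1 mouse with 1 array at each time. These calls therefore depended on which TERT-off mouse was used.

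**Figure D4:**
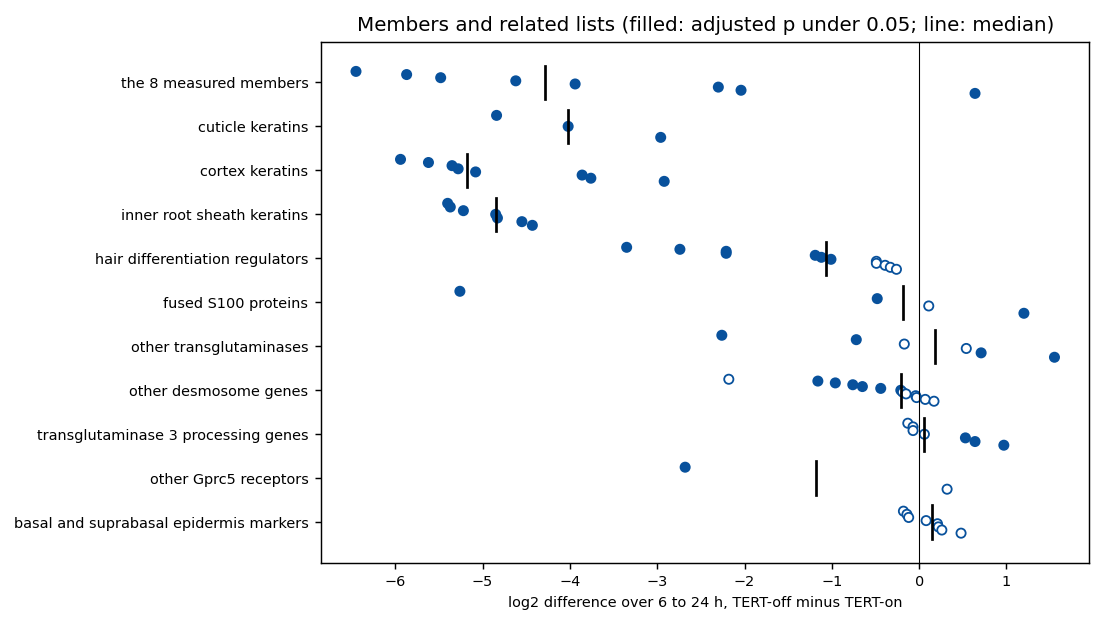
Log2 difference over 6 to 24 h, TERT-off minus TERT-on, for the 8 measured genes and for lists of related genes, with 1 point per gene, filled where the limma adjusted p was under 0.05, and a line at the median of each list. The hair keratin lists lie between −5.94 and −2.92, and the epidermis markers lie around 0.

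Keratins of the hair cuticle, the cortex and the inner root sheath were lower as well. All 3 measured cuticle keratins were lower (Krt35 −4.84, Krt82 −4.02, Krt32 −2.96), as were all 8 cortex keratins, with a median of −5.18 (Krt33a −5.94, Krt31 −5.62, Krt34 −5.35, Krt86 −5.28), and all 7 inner root sheath keratins, with a median of −4.85 (Krt72 −5.40, Krt26 −5.37, Krt27 −5.22, Krt73 −4.85). These log2 differences are over 6 to 24 h, from the same limma fit as the background of 12.6% lower. Summed over 7 genes, inner root sheath keratins went from 22329.6 at 0 h to 19293.6, 1848.4 and 954.8 in TERT-off replicate 2. At 0 h the lists had medians of −1.40, −1.71 and −2.62, and no keratin of the 3 lists passed there. Without TERT-off replicate 1, an alternative for all lists added after seeing the data, 2 of 2 cuticle, 6 of 8 cortex and 7 of 7 inner root sheath keratins were lower over 6 to 24 h, with medians of −2.51, −2.74 and −3.01. When either of the TERT-on mice was left out, 0 keratins of the 3 lists passed in limma, at medians of −6.06 to −3.45. An unadjusted p under 0.05 was then given by all 3 cuticle and all 7 inner root sheath keratins in both fits, and by 8 cortex keratins without replicate 1 and 1 without replicate 2.

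Relatives of the members gave mixed values. Among the fused S100 proteins, the family of trichohyalin, Tchhl1, its neighbour, was lower (−5.26), Flg, which encodes filaggrin of the cornified layer, was slightly lower (−0.48) and Hrnr, another cornified layer gene, was higher (1.2). Rptn, the neighbour on the other side, had 0.11 and did not pass. Among 6 other transglutaminases tested, Tgm6 (−2.26) and Tgm1, the enzyme of the cornified envelope (−0.72), were lower, while F13a1, the coagulation factor subunit that macrophages make (1.55), and Tgm5 (0.71) were higher. Of 7 proteases and inhibitors known to act around transglutaminase 3, 3 were higher (Ctss 0.97, Csta1 0.64, Cst3 0.53) and none lower. Gprc5a, a relative of Gprc5d, was lower (−2.68), and Gprc5b had 0.32 and did not pass. Of the calls named here only that of Csta1 (0.54) was lost without TERT-off replicate 1. Leaving out either TERT-on mouse left fewer called genes among the fused S100 proteins and the other transglutaminases. The same was true of the desmosome, regulator, dermis, macrophage and neutrophil lists below. The share of all genes called fell as well, as given above.

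Dsg4 itself was not analysed here, but 6 of 13 other desmosome genes tested were lower and none higher. The largest differences among these were those of the plakophilins Pkp2 (−1.16) and Pkp3 (−0.96), of Evpl, which encodes envoplakin (−0.76), and of Dsg2 (−0.65). The list median was −0.21. Of 12 regulators of hair differentiation 7 were lower, among them Msx2 (−3.35), Hoxc13, a homeobox factor of the hair shaft (−2.74), Dlx3 (−2.21) and Foxn1, the nude gene (−2.21), and none were higher. Of these lists 6 of 13 and 5 of 12 were lower without TERT-off replicate 1, with Msx2 at −2.40 and Hoxc13 at −1.83.

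Markers of other skin compartments were counted beside them. None of 8 markers of basal and suprabasal epidermis passed over 6 to 24 h in limma, with a median of 0.15 (Krt5 −0.14, SE 0.10, adjusted p = 0.313). Their summed intensity was 19047.7 to 29791.8 in TERT-off and 21108.4 to 28269.1 in TERT-on skin. Dermis markers were higher for 5 of 6 genes, with Pdgfra at 1.44, and their sum was 19901.4 to 30387.2 against 12851 to 20949.9. Macrophage markers were higher for 7 of 7 genes, with sums of 3698.4 to 8470.7 against 1834.9 to 3776.1 over 5 genes. Leaving out TERT-off replicate 1, 3 of 6 dermis and 6 of 7 macrophage markers were higher, and no epidermis marker passed in limma, 4 having an unadjusted p under 0.05. The part of these other cells in the members' differences was not tested.

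**Figure D5:**
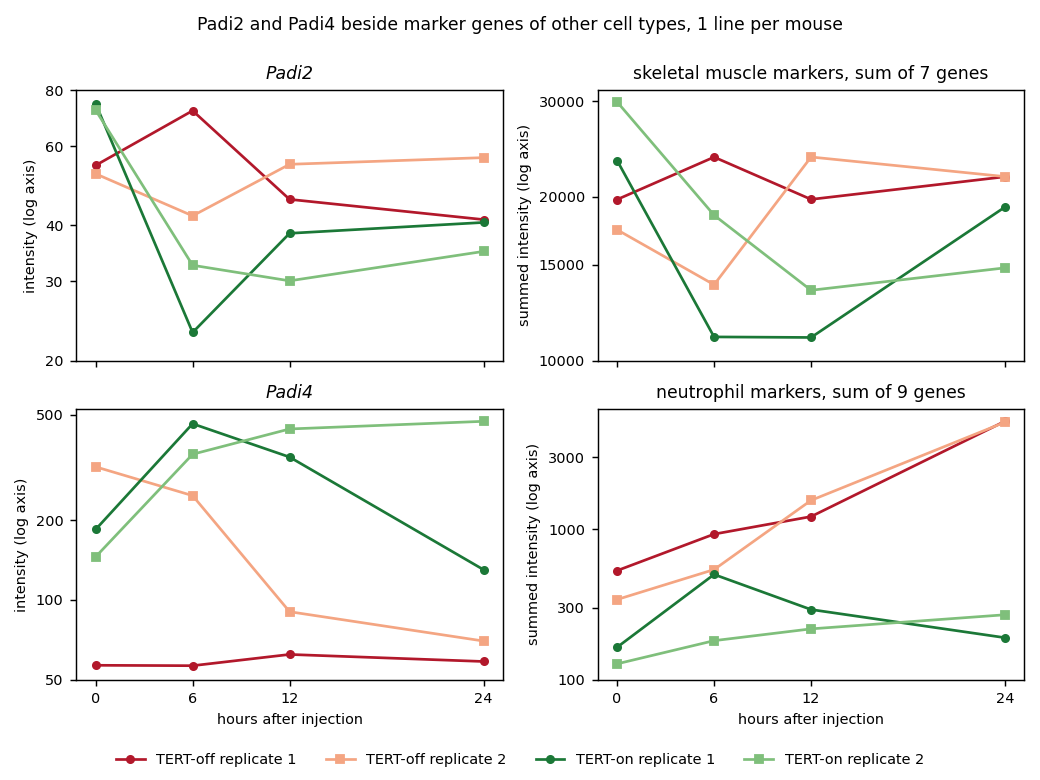
Intensity of Padi2 and Padi4 (left) beside the summed intensity of 7 skeletal muscle markers and 9 neutrophil markers (right), on log axes by hours after injection, each mouse drawn as a line. Padi2 and the muscle sum are both highest on the TERT-on arrays of 0 h, and Padi4 falls in TERT-off replicate 2 while the neutrophil sum rises.

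Padi2 and Padi4 are also products of other cells of the biopsy. Over 6 to 24 h 1 of 8 skeletal muscle markers passed, as higher (Mylpf 0.90). The sum of 7 of them was 23329.7 to 29899.5 on the TERT-on arrays of 0 h, 11027.7 to 19159.4 on the later TERT-on arrays and 13786.7 to 23677.6 on the later TERT-off arrays, so that it was lower after 0 h in TERT-on skin, as Padi2 was. Across the 16 arrays, which share 4 mice, log2 Padi2 and log2 of the marker sum had a Pearson r of 0.809, given as a description, and 0.825 over the 12 arrays without TERT-off replicate 1. In that fit Mylpf (0.81) and Myh1 (1.00) were higher and Myh4 (−1.16) was lower. The part of muscle in the Padi2 difference was not tested.

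Between the cohorts, neutrophil markers and Padi4 differed in opposite directions. Of 7 tested, 6 were higher in TERT-off skin, with S100a9 at 3.27, Mmp8 at 2.30, S100a8 at 2.13 and Csf3r at 1.99. Ngp, at −0.09, did not pass the threshold, and Camp, Ltf, Elane and Mpo did not pass the filter. The sum of 9 markers was 538.9 to 5227.5 on the later TERT-off arrays and 181.4 to 500.1 on the later TERT-on arrays, and its Pearson r with Padi4 over 16 arrays was −0.645. S100a9 alone gave 403.2 to 4783.7 and 97.5 to 362.8 on these arrays, so the sum mostly follows that 1 gene. With TERT-off replicate 1 left out, 5 of 7 were higher and r was −0.545 over 12 arrays. Between the cohorts Padi4 was thus lower where 6 of the 7 markers tested were higher, and the part of neutrophils in the Padi4 difference was not tested. Within the TERT-on mice Padi4 and the marker sum moved together. In replicate 1 the sum was 164, 500.1, 292.1 and 189.8 and Padi4 184.5, 462.8, 346.3 and 130, and both rose throughout in replicate 2. In TERT-off replicate 1 the sum rose from 530.4 to 5227.5 while Padi4 stayed between 56.4 and 62.2. Of 5 plasma cell markers tested, Jchain was higher (1.71), Sdc1, which epidermis also makes, was lower (−0.50), and the other 3 did not pass, while Gprc5d was lower. Without that mouse Jchain did not pass (1.70) and Sdc1 was still lower (−0.54).

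Within the group, Pearson r of log2 intensity was highest between Padi3 and S100a3, at 0.994 over 16 arrays, and lay between 0.853 (Tchh and Tgm3) and that value for all pairs without Padi2. With Padi2 every pair was below 0, from −0.618 with Padi4 to −0.405 with Tchh. Pairs with Gprc5d had 13 arrays. Without TERT-off replicate 1 r was 0.992 for Padi3 and S100a3 and 0.822 for Tchh and Tgm3 over 12 arrays, and every pair with Padi2 stayed below 0.

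Among all other genes, those with the most similar pattern to Padi3 were Krt72 (r of 0.997), Krt26 (0.996) and Krt71 (0.996), and to Tchh they were Krt27 (0.999), Prr9 (0.996) and Krt25 (0.995). S100a3 was nearest to Krt71 (0.995), Krt25 (0.994) and Prr9 (0.990). All but Prr9 of these are keratins of the inner root sheath. Padi1 was nearest to Capn8 (0.986), Tchhl1 (0.985 over 15 arrays) and Plxna2 (0.985), Padi4 to Capn12 (0.985), Stox1 (0.982) and 4930438A08Rik (0.981), and Tgm3 to Capn12 (0.971), Slc9a3r1 (0.969) and Krtap5-4 (0.969). Gprc5d was nearest to Gm11563 (0.994), Capn8 (0.994) and the keratin-associated protein gene Krtap4-6 (0.993), over 13 arrays. Padi2 stood apart, with Ccdc6 (0.925), Atg16l2 (0.914) and Ulk2 (0.912). Without TERT-off replicate 1 the r of these named pairs lay between 0.904 and 0.998. These values describe 16 arrays of 4 mice and were not tested.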

How the data were processed

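RNA of 16 mouse back skin biopsies was hybridised to Affymetrix whole-genome arrays. The authors normalized the arrays in dChip on an invariant set of probes and deposited model-based intensity values (perfect match minus mismatch) for 45101 probe sets, 1425 cells being empty. The number of arrays limits the precision. Values under the 20th percentile (7.71) were raised to it, log2 was taken, and 25576 probe sets above the table median (34.4) on at least 2 arrays were kept. The probe set with the highest mean stood for its gene (12589 genes). limma 3.58.1 (R 4.3.3, statmod 1.5.0) fitted 8 group means and an intensity trend, arrays of a mouse sharing a random effect (correlation 0.0728), with two-sided Benjamini-Hochberg adjusted p over all probe sets kept. A permutation of 2 mice against 2 cannot go below p = 0.333, so none was run. On simulated data for the comparison over 6 to 24 h, with 25576 probe sets, 96 of 100 changes of 1.5 and 100 of 100 of 3 (log2) were recovered. These data were drawn from the fitted model itself, with the mouse correlation of 0.0728 for every probe set. They therefore say nothing about genes whose mice differ as widely as the TERT-off mice did for Padi3. The members and all gene lists were chosen with earlier results of these data known. Named genes were all members, up to 4 called genes per list with the largest differences, and the 3 genes most correlated with each member. Replicates are labelled as biological. Alternatives changed the floor, filter, scaling, blocks, moderation, empty cells, probe set choice and mice. Figures were drawn with matplotlib 3.10.9.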

Additional observations from a re-analysis of the deposited data

How the results depend on the processing

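No direction reversed over 6 to 24 h, where the log2 difference of Padi3 ran from −7.24 to −3.71 over all settings, of S100a3 from −8.20 to −3.55, and of Padi2 from 0.50 to 0.65. Leaving out 1 mouse in turn, the number of members called ranged from 0 to 8 over 6 to 24 h, 0 to 5 at 0 h, 0 to 7 at 6 h, 0 to 5 at 12 h, 0 to 5 at 24 h, 0 to 3 within TERT-off, 0 to 2 for the difference of changes and 0 to 2 for 24 h minus 6 h. With no filter on dim probe sets, and likewise with empty cells set to the floor, the number called at 6, 12 and 24 h was 0 each, where it had been 1. With the floor at the table median it was 0 at 6 h, and 1 (Padi2, lower) within TERT-on. Replicate numbers do not pair the cohorts: deviations of equally numbered mice correlated at −0.0494, −0.125, 0.106 and 0.0848 at 0, 6, 12 and 24 h. With the replicate block 2 members were called at 12 h, and 8 over 6 to 24 h as without it. The cause of these moves was not tested, except that a left-out mouse leaves fewer samples. With 2 mice in a cohort the spread is poorly known, and signal near the floor limits Gprc5d, S100a3 and Padi3 in TERT-off skin.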
